A study of Mus musculus with 7 samples.

Results

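The core macrophage identity genes are 9 genes that mark the mononuclear phagocyte lineage: Csf1r, Adgre1, Msr1, Tyrobp, Cd68, Lyz2, Mpeg1, Laptm5 and Aif1. They were chosen by name, as the probe sets annotated to each symbol alone, and 16 such probe sets were found among 20380 probe sets with a single gene, so that the set holds 9 of 12393 genes. The study profiled total RNA of mouse fetal liver on 7 short-oligonucleotide arrays read in 1 colour. They hold a feeder layer from that liver (n = 1), liver endothelial progenitors whose label names no Sca1 state, called unsorted here (n = 1), Sca1+ progenitors (n = 2) and Sca1- cells (n = 3), of which replicate 1 is labelled endothelial without the word progenitor. Sca1 is a surface antigen of stem and progenitor cells encoded by Ly6a. The labels give no strain, age, culture time or treatment, and do not say whether replicates came from separate animals or cultures, so p-values cover the spread of these samples alone, which may be technical. The feeder array was deposited in a table of its own under another platform record. Signals are given on a scale with a trimmed mean of 500 for every array, and every difference is in log2 units after signals under 64 were set to 64.

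Macrophages of the fetal liver derive from yolk sac and liver precursors and depend on the receptor for colony stimulating factor 1, the product of Csf1r, for survival and growth. They clear the nuclei that maturing red cells expel and become the resident Kupffer cells of the adult liver. Their common transcripts encode surface receptors (Csf1r, Adgre1, Msr1), a signalling adaptor (Tyrobp), lysosomal and antimicrobial proteins (Cd68, Lyz2, Mpeg1, Laptm5) and a calcium-binding protein of the actin cytoskeleton (Aif1). Lyz2, Tyrobp and Laptm5 are also transcribed in granulocytes or other leukocytes, whereas Adgre1 is the mouse gene of the macrophage antigen that gives the lineage its common surface marker.

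The arrays differed in ways that touch every result below. The Sca1+ replicate 2 and Sca1- replicates 2 and 3 carry a sample number in their titles, and the submitters' processing notes name the software GCOS for these 3 alone. The other arrays carry no number, and Sca1+ replicate 1 and Sca1- replicate 1 are called the unnumbered pair. For Actb the 3' over 5' signal ratio, which is high when transcripts are truncated, was 1.03 on the feeder array, 1.01 on the unsorted array, 6.83 and 2.37 for Sca1+ and 13.5, 1.87 and 1.91 for Sca1-. The median signal of 18 probe sets for the bacterial biotin genes and phage cre, transcripts commonly added as hybridisation controls, was 736 on the feeder array, 756 on the unsorted array, 3856 and 3505 for Sca1+ and 9811, 3994 and 2862 for Sca1-. The highest of 27 probe sets for other bacterial transcripts, used as the background level, lay between 50.8 and 170. On the labelled identity, 18 of 18 pan-leukocyte genes exceeded that background on each array. Of 20 endothelial genes, 12 did on the feeder array, 11 on the unsorted array, 7 and 14 for Sca1+ and 3, 7 and 10 for Sca1-. The fewest were on Sca1- replicate 1. The background level was 170 on that array and also 170 on the unsorted array. Pecam1, the endothelial gene of CD31, had signals of 124 on the feeder array, 117 on the unsorted array, 15.0 and 206 for Sca1+ and 23.2, 117 and 25.8 for Sca1-. Ly6a itself was not analysed here.

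The 9 genes gave signals above background on nearly every array. Of the 16 probe sets, 16 lay above the background level on each array except Sca1- replicate 1, where 15 did. The exception was Aif1 (probe set 1418204_s_at), with a signal of 11.6 there. Over the 9 genes, each read by its brightest probe set, the median log2 signal was 12.56 on the feeder array, 12.79 on the unsorted array, 14.15 and 13.54 for Sca1+ and 14.04, 13.47 and 13.31 for Sca1-. The median over all 12393 genes lay between 7.45 and 8.20. In bulk RNA, fewer macrophages and less RNA per macrophage cannot be told apart, so each value below is a level in the sample and not in a cell.

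**Figure D1:**
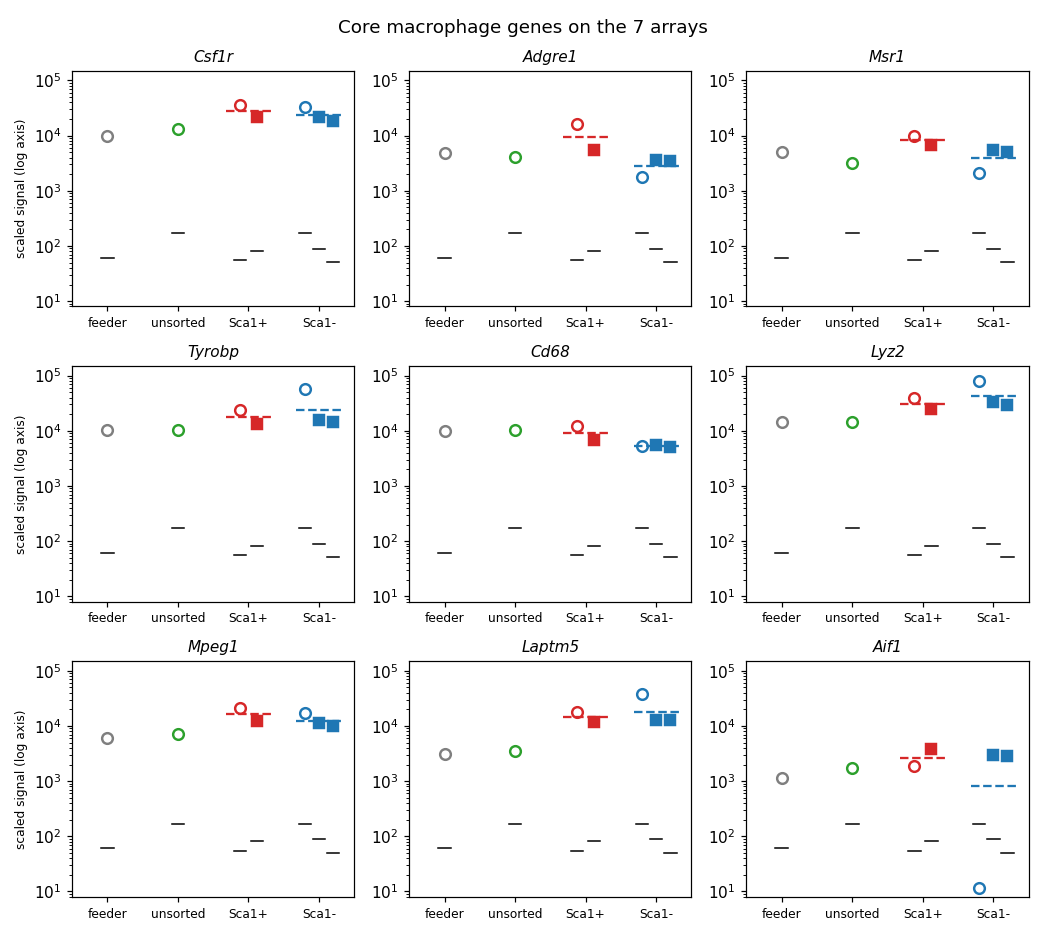
Scaled signal (log axis) of each gene on the 7 arrays, by group. Open circles are arrays without a sample number in the title, filled squares are numbered arrays, dashed lines are geometric means of the sorted fractions with the floor of 64 applied, and short black lines are the highest bacterial control of each array. Every point but Aif1 on Sca1- replicate 1, at 11.6, lies above its control line.

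Among the receptors, Csf1r encodes the tyrosine kinase receptor for the macrophage growth factors CSF1 and interleukin 34. The brightest probe set of Csf1r had signals of 10050 on the feeder array, 12945 on the unsorted array, 35387 and 22049 for Sca1+ and 32741, 21474 and 18499 for Sca1-. The fractions overlapped, and the feeder and unsorted arrays lay below all 5 sorted arrays.

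Adgre1, which encodes an adhesion G protein-coupled receptor of macrophages, had signals of 4914 on the feeder array, 4122 on the unsorted array, 16333 and 5550 for Sca1+ and 1812, 3565 and 3513 for Sca1-. Both Sca1+ arrays lay above every other array, and the Sca1- arrays lay below the rest. Msr1, the class A scavenger receptor that takes up modified lipoproteins, had signals of 5108 on the feeder array, 3221 on the unsorted array, 9702 and 6884 for Sca1+ and 2126, 5578 and 5066 for Sca1-. Here too both Sca1+ arrays were the highest and Sca1- replicate 1 the lowest.

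Tyrobp encodes the adaptor DAP12, which couples receptors such as TREM2 to the kinase SYK. It had signals of 10555 on the feeder array, 10449 on the unsorted array, 24002 and 13331 for Sca1+ and 56541, 15867 and 14712 for Sca1-. Sca1- replicate 1 stood above all others, and the other sorted arrays of the 2 fractions were interleaved.

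Among the lysosomal and antimicrobial genes, Cd68, a heavily glycosylated lysosomal membrane protein, had signals of 9762 on the feeder array, 10186 on the unsorted array, 12416 and 6723 for Sca1+ and 5212, 5513 and 5008 for Sca1-. The feeder and unsorted arrays both exceeded every Sca1- array, as they did for Adgre1. The mean log2 signal was 13.16 ± 0.63 in Sca1+ (SD, n = 2) and 12.36 ± 0.07 in Sca1- (SD, n = 3), the smallest SD of the 9 genes in Sca1-.

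Lyz2, the lysozyme of phagocytes, had signals of 14698 on the feeder array, 14454 on the unsorted array, 39708 and 24437 for Sca1+ and 79825, 33569 and 29443 for Sca1-. Sca1- replicate 1 was again the highest and the feeder and unsorted arrays the lowest. Of the probe sets annotated to the near-identical paralog Lyz1, 1436996_x_at and 1439426_x_at followed it with r = 0.997 and 0.999 over 6 arrays, while 1450822_at reached at most 192 and had r = -0.02. Whether the bright probe sets read Lyz2, Lyz1 or both cannot be told apart.

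Mpeg1, the gene of the pore-forming protein perforin-2, had signals of 6036 on the feeder array, 7063 on the unsorted array, 21160 and 12433 for Sca1+ and 16902, 11381 and 10123 for Sca1-. Its order over the 7 arrays was that of Csf1r. Laptm5, a lysosomal membrane protein of leukocytes, had signals of 3080 on the feeder array, 3563 on the unsorted array, 18222 and 11941 for Sca1+ and 37279, 12852 and 12723 for Sca1-. By the brightest probe set of Laptm5 the feeder and unsorted arrays lay below all sorted arrays, and Sca1- replicate 1 was the highest.

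Aif1, whose product IBA1 bundles actin and is a standard stain for microglia and macrophages, had signals of 1149 on the feeder array, 1746 on the unsorted array, 1848 and 3883 for Sca1+ and 11.6, 3007 and 2902 for Sca1-. It was measured above background on 2 of the 3 Sca1- arrays. Within the unnumbered pair the Sca1+ signal was at least 10.9-fold the highest bacterial control of Sca1- replicate 1, which was 170.

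The promoters of Cd68 and Lyz2 are shown because these genes had differences of opposite sign between the fractions, neither of which passed the test below, and both windows lie outside the gene record. Both come from RefSeq on GRCm38.p6, each 250 bases ending just before the annotated start, 5' to 3' on the gene's own strand. The transcription factor encoded by Spi1, which drives many myeloid promoters, binds purine-rich DNA with a GGAA core. Capitals mark every match on either strand to the string GAGGAA, to the string AGGAAG or to the string GGAAGT, which overlap one another and were chosen after the sequences were seen.
Cd68: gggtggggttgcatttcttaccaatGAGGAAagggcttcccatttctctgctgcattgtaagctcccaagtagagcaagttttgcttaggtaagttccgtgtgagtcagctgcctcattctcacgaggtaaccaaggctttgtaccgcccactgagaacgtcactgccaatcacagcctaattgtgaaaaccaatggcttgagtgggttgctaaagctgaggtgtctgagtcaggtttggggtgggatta
Lyz2: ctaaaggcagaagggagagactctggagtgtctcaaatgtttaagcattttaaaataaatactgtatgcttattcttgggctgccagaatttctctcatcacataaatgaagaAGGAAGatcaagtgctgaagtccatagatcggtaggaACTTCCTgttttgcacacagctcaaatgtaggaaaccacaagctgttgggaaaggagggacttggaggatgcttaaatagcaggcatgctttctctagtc
The Cd68 window is chr11:69666171-69666420, minus strand, and the Lyz2 window is chr10:117282273-117282522, minus strand. Cd68 held 1 match and Lyz2 held 3. Of the 9 genes, 5 were in the promoter table, and 4 of these held at least 1 of the strings, the match-free window being that of Mpeg1. Among all 32851 windows of the table, 23.3% hold GAGGAA, 29.5% hold AGGAAG, 19.7% hold GGAAGT and 47.2% hold at least 1 of them. Since the strings were picked from the windows of these genes, nothing is read from the counts beside those shares. A match is a string in the sequence and not a measured binding site.

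Between the Sca1+ and Sca1- fractions, 6 of the 9 genes had higher mean levels in Sca1+, against 55.9% of all genes tested, 3 had lower ones, and 0 passed the test (limma, Benjamini-Hochberg adjusted p under 0.05). Adgre1 differed by 1.75 ± 0.58 (SE) or 3.36-fold, Msr1 by 1.06 ± 0.52 and Cd68 by 0.80 ± 0.41. The value of Aif1, 1.70 ± 1.62, is set by the floor on Sca1- replicate 1, and was 2.37 with a floor of 16 and 1.37 with the higher floor tried, so it has no rank among them. Mpeg1 (0.38 ± 0.44) and Csf1r (0.25 ± 0.45) were above 0 by less than their SE. Laptm5 (-0.31 ± 0.58), Tyrobp (-0.40 ± 0.68) and Lyz2 (-0.46 ± 0.56) were below 0 by less than theirs.

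The median of the 9 differences was 0.38, against 0.07 over all 8591 genes tested. The adjusted p was 0.9995 for each of the 9 genes. Over all genes 0 passed, which is 0%, and 292 (3.4%) had an unadjusted p under 0.05 in limma, 1.11% of genes being higher in Sca1+ and 2.29% lower. Of the 9 genes 1 was among them, Adgre1, which was higher. Both Sca1+ arrays exceeded every Sca1- array for 3 genes, Adgre1, Cd68 and Msr1, against 12.1% of genes tested. No gene of the set lay below every Sca1- array on both Sca1+ arrays, against 8.45%.

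Within the arrays of like title the signs were the same, but the sizes were not. In the unnumbered pair, 1 array against 1, the Sca1+ minus Sca1- difference was 3.17 for Adgre1, 2.19 for Msr1, 1.25 for Cd68, 0.32 for Mpeg1 and 0.11 for Csf1r. For Aif1 it was at least 3.44 when Sca1- replicate 1 is put at its background level. Lyz2 (-1.01), Laptm5 (-1.03) and Tyrobp (-1.24) were lower on the Sca1+ array. Among the numbered arrays, 1 against 2, the values were 0.65 for Adgre1, 0.39 for Aif1, 0.37 for Msr1, 0.36 for Cd68, 0.21 for Mpeg1 and 0.15 for Csf1r. Those of Laptm5, Tyrobp and Lyz2 were -0.10, -0.20 and -0.36. Thus 6 genes were higher in both sets and 3 lower in both, against 32.4% and 24.6% of all genes tested.

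**Figure D2:**
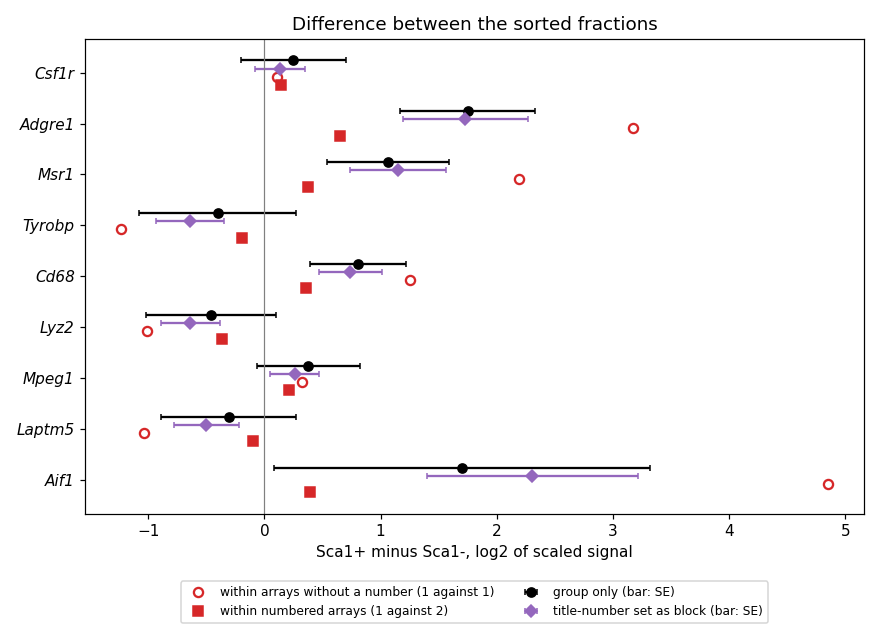
Sca1+ minus Sca1- difference (log2 of scaled signal) of each gene, from the fit with group only and the fit with the title-number set as a block (bars: SE), and within each set of arrays. All 4 estimates of a gene share a sign, and those of Adgre1, Msr1, Cd68 and Aif1 are larger in the unnumbered pair (open circles) than in the numbered arrays (filled squares); Aif1's open circle uses the floor of 64.

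With the set as a block in limma, the difference was 1.73 ± 0.54 (SE) for Adgre1 (adjusted p = 0.250), 2.30 ± 0.91 for Aif1 (adjusted p = 0.315), 1.15 ± 0.41 for Msr1 (adjusted p = 0.291) and 0.74 ± 0.27 for Cd68 (adjusted p = 0.296). Lyz2 stood at -0.64 ± 0.25 (adjusted p = 0.317), Tyrobp at -0.64 ± 0.29 and Laptm5 at -0.50 ± 0.28. Again 0 of the 9 genes passed, against 0% of all genes in the higher and 0.989% in the lower direction. At an unadjusted p under 0.05, 4 of the 9 were higher (Adgre1, Cd68, Aif1 and Msr1), against 7.67% of all genes, and 1 was lower (Lyz2), against 7.82%. Leaving out 1 array changed sizes by more than 1.5 times. Adgre1 was 0.97 without Sca1+ replicate 1, Cd68 was 0.36 and 1.24 without Sca1+ replicates 1 and 2, and Msr1 was 0.62 without Sca1- replicate 1. Aif1 turned to -0.14 without Sca1- replicate 1, and Tyrobp and Laptm5 to 0.23 and 0.21. Csf1r was -0.09 and Mpeg1 -0.01 without Sca1+ replicate 1.

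Granulocyte genes differed between the fractions in the same direction as Lyz2, Tyrobp and Laptm5. The 15 measured genes of that list had a summed signal of 9040 on the feeder array, 69423 on the unsorted array, 147900 and 11015 for Sca1+ and 633946, 238025 and 212310 for Sca1-, with 15 and 11 genes above background on the Sca1+ arrays and 15 on each Sca1- array, and none at 0. The median difference of that list was -3.30 and all 15 were below 0, whereas 55.9% of all genes tested were above 0. With the block 8 passed lower (Pglyrp1, Cxcr2, S100a9, Mmp8, Mmp9, Camp, Lcn2 and Ltf), against 0.989% of all genes. The list's sum was higher on the unsorted array than on Sca1+ replicate 2, where the brightest probe sets of the 3 genes were higher. Laptm5 probe set 1417721_s_at went the other way, at 2297 unsorted and 1051 on Sca1+ replicate 2, but 1426025_s_at did not (6820 and 13229). Levels on the unsorted array also depended on the scaling, as given below. The part of the granulocyte list in the differences of the 3 genes was not tested.

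Genes with several probe sets did not read alike. Csf1r has 3, and the other 2 had their lowest sorted value on Sca1- replicate 1, where the brightest had its second highest. Probe set 1419873_s_at had signals of 16667 and 9659 for Sca1+ and 4598, 9559 and 8488 for Sca1-. Probe set 1423593_a_at had 3933 and 3340 for Sca1+ and 1188, 2570 and 2260 for Sca1-, so that here both Sca1+ arrays exceeded every Sca1- array. Their Sca1+ minus Sca1- differences were 0.82 ± 0.49 and 0.93 ± 0.46 (SE), against 0.25 ± 0.45 for 1419872_at. Over the 6 arrays of the larger table the brightest probe set had r = 0.16 and -0.41 with the others, which had r = 0.75 with each other.

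Laptm5 showed the widest disagreement. Probe set 1436905_x_at, whose suffix marks probes that may bind other transcripts, had the levels given above. Probe set 1426025_s_at had signals of 6212 and 13229 for Sca1+ and 4476, 14906 and 14362 for Sca1-, with the unnumbered pair lowest rather than highest. Probe set 1417721_s_at had 441 and 1051 for Sca1+ and 1065, 1518 and 1462 for Sca1-. The differences between fractions were -0.31 ± 0.58, -0.12 ± 0.65 and -0.97 ± 0.49 in that order (SE), and the second turned sign between the sets, with 0.47 in the unnumbered pair and -0.15 in the numbered arrays.

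Msr1 was the most coherent. Its 4 probe sets differed by 1.06 ± 0.52, 1.13 ± 0.74, 1.51 ± 0.55 and 1.28 ± 0.74 (SE) between Sca1+ and Sca1-, and all were positive within each set of arrays, from 2.19 to 3.01 in the unnumbered pair and from 0.32 to 0.68 in the numbered arrays. None passed the test. The r between pairs of them over 6 arrays ran from 0.39 to 0.95. The 3' to 5' ratios were highest on the unnumbered pair, at 6.83 and 13.5 for Actb and 4.86 and 13.2 for Gapdh. Every Csf1r probe set had its highest sorted value on Sca1+ replicate 1 (35387, 16667 and 3933), and they disagreed on Sca1- replicate 1. The part of these ratios in the probe set disagreements was not tested, since probe positions were not used here.

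**Figure D3:**
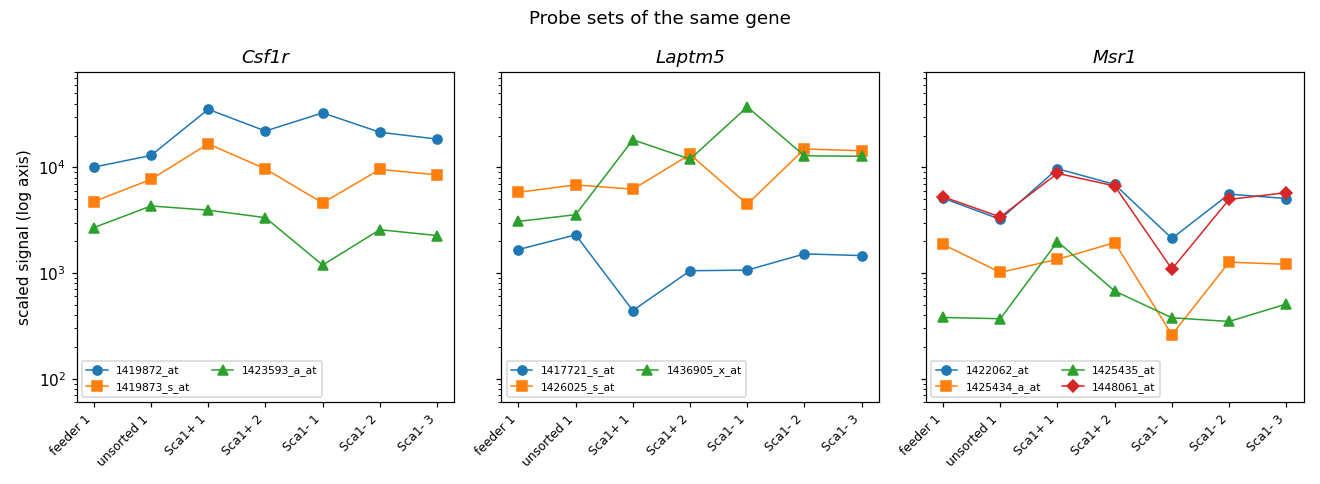
Scaled signal (log axis) of every probe set of Csf1r, Laptm5 and Msr1 on the 7 arrays; lines join the values of 1 probe set and imply no order. On Sca1- replicate 1 probe set 1419872_at of Csf1r and 1436905_x_at of Laptm5 are high (32741 and 37279), while the other sets of Csf1r and all but 1425435_at of Msr1 are at their lowest among the sorted arrays.

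The 9 genes did not vary as a unit. Over the 6 arrays of the larger table, which share scaling and differ in 3' to 5' ratio, the 36 pairwise correlations of log2 signal ran from -0.89 to 0.99 with a median of 0.24, and 14 were below 0. Csf1r and Mpeg1 were closest (r = 0.99), followed by Lyz2 with Laptm5 (0.97) and Lyz2 with Tyrobp (0.96). Grouped after these values were seen, Csf1r, Mpeg1, Lyz2, Tyrobp and Laptm5 had r between 0.74 and 0.99 among themselves. Adgre1, Cd68, Aif1 and Msr1 had r between 0.23 and 0.86. Between these groups r ran from -0.89 to 0.37, the lowest being Aif1 with Tyrobp. With 6 arrays and the probe set disagreements above these are descriptions.

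The genes whose levels lay closest to the mean standardised profile of the set, among 5445 genes with an SD of at least 0.5 over the 6 arrays, were Parp9 (r = 0.982), Pnp (0.982), Igtp (0.981), Ufsp2 (0.977), Chordc1 (0.976), Ms4a6d (0.975), Ifi47 (0.975) and Brox (0.974). That profile was highest on Sca1+ replicate 1. Ms4a6d, for example, had signals of 3742 on the feeder array, 4023 on the unsorted array, 25289 and 9622 for Sca1+ and 7954, 8700 and 7870 for Sca1-. Igtp had signals of 423 on the feeder array, 783 on the unsorted array, 3272 and 1425 for Sca1+ and 1529, 1166 and 1325 for Sca1-. None of the 8 passed the test between fractions.

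The unsorted progenitors were set beside the sorted fractions as 1 array, with no replicate check and no test. Laptm5, Lyz2, Mpeg1, Csf1r and Tyrobp were lower on the unsorted array than on all 5 sorted arrays, which held for 15.6% of 9398 genes above the signal minimum, and 0 of the 9 lay above all 5, against 33% of genes. Their differences from the mean of the fractions were -2.20, -1.34, -1.01, -0.99 and -0.98. Msr1 (-0.81) and Adgre1 (-0.33) lay within the sorted range, as did Aif1 (0.23) and Cd68 (0.56). The median of the 9 was -0.98 against 0.25 over all genes. At least a 2-fold lower level was seen for 3 of the 9, against 7.64% of all genes, and 0 of the 9 reached 2-fold higher, against 20.1%.

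The Aif1 value depended on the floor, at 0.57 with a floor of 16 and 0.07 with the higher floor tried. The other differences depended on the scaling and on the probe set. After quantile normalization the median of the 9 was 0.03, with Csf1r, Adgre1, Cd68, Aif1 and Tyrobp above 0 and 4 genes below, and after median scaling it was -1.70 with 9 below 0. The single values then ran from -1.61 to 1.43 and from -2.93 to -0.17. All-gene medians shifted as well, to -0.04 and -0.45, against 0.25 before. With a gene's probe sets averaged, the median of the 9 was -0.47, Csf1r stood at -0.20 and Laptm5 at -0.47. For Csf1r the level below all 5 sorted arrays rests on 1 of 3 probe sets. Probe set 1419873_s_at read -0.31, lower but with its unsorted signal of 7694 within the sorted range. Probe set 1423593_a_at read 0.71, with its unsorted signal of 4306 above all 5 sorted arrays. For Laptm5 too the level below all 5 sorted arrays rests on 1 of 3 probe sets. Probe set 1417721_s_at read 1.27, with its unsorted signal of 2297 above all 5 sorted arrays. Probe set 1426025_s_at read -0.47, with its unsorted signal of 6820 within the sorted range. The spike controls had a median difference of -2.78 between the unsorted array and the sorted mean, and the highest signal on any probe set was 21793 on the unsorted array against 45419 to 111744 on the sorted arrays. Their part in the lower values of bright probe sets was not tested.

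The feeder layer lies in a separately deposited table, so levels are set side by side without a test. The feeder and unsorted arrays were close for the 9 genes, with differences from -0.60 for Aif1 to 0.67 for Msr1 and a median of -0.06, against -0.07 over 9398 genes. Tyrobp (0.01), Lyz2 (0.02) and Cd68 (-0.06) were the nearest, Adgre1 stood at 0.25, and Csf1r (-0.37), Mpeg1 (-0.23) and Laptm5 (-0.21) were lower on the feeder array. None of the 9 differed by 2-fold, against 4.01% of all genes that reached this size upward and 12.4% downward in the feeder layer. Signs flipped with scaling: 4 genes were above 0 here, 2 after quantile normalization and 7 after median scaling, with Msr1 and Adgre1 above 0 in each. Under median scaling Msr1 reached 1.02, a 2-fold difference. The granulocyte list had a median of -3.23 in the same comparison, with a summed signal of 9040 on the feeder array and 69423 on the unsorted array.

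Against the mean of the sorted fractions the feeder array was lower for 8 of the 9 genes, with a median of -0.96 against 0.05 over all genes. Laptm5 (-2.41), Csf1r (-1.35), Lyz2 (-1.31) and Mpeg1 (-1.24) were at least 2-fold lower, against 7.51% of all genes, and Tyrobp stood at -0.96. By their brightest probe sets these 5 genes lay below all 5 sorted arrays, as did 17.1% of all genes. Aif1 (-0.37), Msr1 (-0.15) and Adgre1 (-0.08) lay within the sorted range, as did Cd68 (0.50). None was at least 2-fold higher, against 12.6%. After quantile normalization 1 gene remained 2-fold lower, Laptm5 at -2.08, the median was -0.36, Csf1r stood at -0.60, Lyz2 at -0.36 and Mpeg1 at -0.76, and Adgre1 and Msr1 were above 0. With probe sets averaged 2 genes were 2-fold lower, and Csf1r stood at -0.78 and Laptm5 at -0.77. By single probe set, 1417721_s_at and 1426025_s_at of Laptm5 read 0.81 and -0.70. The feeder signal of the first (1667) lay above all 5 sorted arrays and that of the second (5805) within the sorted range. The Csf1r probe sets 1423593_a_at and 1419873_s_at read 0.03 and -1.01, with feeder signals (2688 and 4735) within the sorted range. The Aif1 value was -0.04 with a floor of 16 and -0.54 with the higher floor tried. Csf1, which encodes the ligand of the receptor and was picked after its values were seen, had signals of 1885 on the feeder array, 739 on the unsorted array, 178 and 1055 for Sca1+ and 792, 684 and 692 for Sca1-, the highest being the feeder layer.

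**Figure D4:**
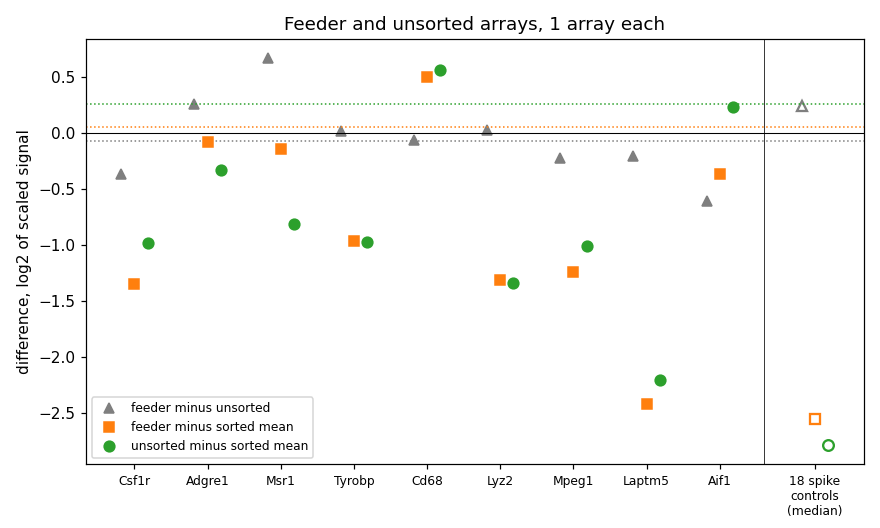
Log2 differences of the 9 genes for the feeder array minus the unsorted array (triangles), the feeder array minus the sorted mean (squares) and the unsorted array minus the sorted mean (circles), with the median of 18 spike controls as open symbols at the right. Dotted lines are the medians over 9398 genes. Laptm5 is lowest against the sorted mean (-2.41 and -2.20), and the feeder minus unsorted values lie between -0.60 and 0.67.

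Other genes of the same pathways were read from lists. Of 24 genes that act with the CSF1 receptor and DAP12, 22 were measured and 21 tested between Sca1+ and Sca1-. Of those tested 5 lay above 0, against 55.9% of all genes, and 16 below, with a median of -0.45 and 0 passing. Those of smallest p were Fgr (-1.71 ± 0.45, SE), a SRC-family kinase, Clec5a (-1.62 ± 0.71), a receptor that pairs with DAP12, Cbl (-1.05 ± 0.46), a ubiquitin ligase, and Trem3 (-2.70 ± 1.33). With the block, Trem3 (-3.28 ± 0.24, adjusted p = 0.00511) and Fgr (-1.83 ± 0.24, adjusted p = 0.0331) passed in limma, lower in Sca1+, as did 0.989% of all genes.

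Of 15 scavenger receptor genes, 14 were measured and 10 tested, with 7 above 0, where 55.9% of all genes lay, 3 below and a median of 0.60. Colec12 (1.20 ± 0.62, SE), Scarb2 (0.64 ± 0.37) and the fatty acid receptor Cd36 (1.04 ± 0.84) lay above 0 and Olr1 (-0.96 ± 0.51) below, and 0 passed in either fit. Of 19 transcription factor genes of macrophages, 18 were measured and 16 tested, with 9 above 0, 7 below and a median of 0.23, and 0 passed in either fit. Tfec (-1.67 ± 0.74), Runx1 (-0.87 ± 0.45), Etv3 (1.14 ± 0.59) and Spi1 (-0.95 ± 0.63) had the smallest p. Spi1, the lineage factor named above, had signals of 2538 on the feeder array, 2443 on the unsorted array, 931 and 3168 for Sca1+ and 2044, 4095 and 4397 for Sca1-, and was lowest on Sca1+ replicate 1.

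Lists of other cells gave context for the same contrast, in which 55.9% of all genes tested lay above 0 and 0.989% passed lower with the block. Pan-leukocyte genes had a median of -0.54 over 18 tested, with 15 below 0, and Arhgdib (-1.95 ± 0.25, SE) passed with the block (adjusted p = 0.0325, limma). Their summed signal was 100882 and 52637 for Sca1+ and 190477, 91300 and 84958 for Sca1-. Monocyte genes had a median of 0.57 over 10 tested, but 1.82 in the unnumbered pair and -0.81 among the numbered arrays, with Ms4a3 and Chil3 passing lower with the block. B-cell genes had a median of 1.25 over 6 tested, all above 0 and none passing. Fibroblast genes had a median of 0.28 over 16 tested, with summed signals of 5040 and 104684 for Sca1+ and 14487, 43834 and 39677 for Sca1-. The list's median was -0.19 in the unnumbered pair and 1.47 among the numbered arrays. Acta2, the smooth muscle actin gene, made up most of the sum on Sca1- replicate 1, with a signal of 10111 there. Endothelial genes had a median of 0.39 over 10 tested of 20, which was -0.51 in the unnumbered pair and 1.16 among the numbered arrays. For dendritic, T and NK, mast, erythroid, megakaryocyte and hepatoblast genes the medians lay between -0.26 and 0.12. In the unnumbered pair and among the numbered arrays they were 0.72 and 0.81 for dendritic genes. They were -1.33 and 0 for mast, -0.44 and -0.01 for T and NK and -0.54 and 0.92 for hepatoblast genes. For erythroid genes they were 0.33 and 0.18, and for megakaryocyte genes -0.34 and -0.61. From these lists Cd3d and Hdc passed lower with the block.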

How the data were processed

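The authors deposited linear intensity values with a trimmed mean close to 250 for every array. Per the submitters' processing notes GCOS made them for the 3 numbered arrays, and for the other arrays the sources used here name no software. Signals were rescaled to a 2% trimmed mean of 500, floored at 64 and put on log2. Of 22690 probe sets, 64 controls, 691 with several genes and 1555 with none were left out. The brightest probe set (mean log2 over the larger table's 6 arrays) stood for each gene. Testing covered the 8591 genes whose signal passed 100 on 2 or more sorted arrays, with limma 3.58.1 in R 4.3.3 (lmFit, eBayes with intensity trend, 3 residual degrees of freedom, Benjamini-Hochberg adjustment); the block leaves 2. Single-array comparisons used 9398 genes above 100 on at least 2 arrays. The test was checked on simulated data whose noise came from Sca1- replicates 2 and 3 alone. Its power at the spread of all sorted arrays was not checked. The 9 genes, the lists, the alternatives and the search strings were chosen with earlier results of these data known. The rule for further names allowed up to 4 genes of smallest p per list, those passing with the block, and the 8 most like the members by Pearson r among genes with an SD of at least 0.5. The genes of smallest p are given only for the CSF1 receptor and DAP12, scavenger receptor and transcription factor lists. Array number limits precision. Figures used matplotlib 3.10.9.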

Additional observations from a re-analysis of the deposited data

How the results depend on the processing

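The count of 0 genes past the threshold between Sca1+ and Sca1- was also 0 after quantile normalization, median scaling, other floors, a pseudocount, a higher signal filter, the mean over probe sets, no intensity trend, a fit of the 5 sorted arrays and leaving out each sorted array. Without the filter 1 gene passed (Smad9, at the floor on all 3 Sca1- arrays and named after its value was seen), with the title-number set as a block 85 and with the replicate block 80, all 85 and 80 lower in Sca1+; 0 of the 9 macrophage genes passed in any of these. Replicate numbers are shared by only 2 pairs and so do not establish pairing. Same-numbered deviations from the group means had r = 0.57 and 0.48 over 8591 genes. The deviations of the 2 Sca1+ arrays mirror each other, so these values are not independent. They cannot tell pairing from the split by title number. The median difference of the 9 genes was 0.38, ran from -0.01 to 0.76 when 1 array was left out, was 0.66 with probe sets averaged (Csf1r 0.66), and was 0.21 without the unnumbered pair, an alternative added after seeing the data, as was testing each probe set. Over 162 gene values under alternatives, 6 turned sign, each on leaving out 1 array: Csf1r ran from -0.093 to 0.59, Mpeg1 from -0.0063 to 0.76, Tyrobp from -0.83 to 0.23, Aif1 from -0.14 to 2.64 and Laptm5 from -0.61 to 0.21. The median unsorted minus sorted difference was 0.027 after quantile normalization and -1.70 after median scaling, and the cause was not tested. Averaging all probe sets of a gene lets dimmer probe sets enter. The median log2 signal of the 9 genes was then 12.30 on the feeder array and 12.79 on the unsorted array. It was 13.69 and 12.71 for Sca1+ and 12.46, 12.69 and 12.65 for Sca1-. The unsorted array then exceeded every sorted array but Sca1+ replicate 1. Signal over background limits 1 value, Aif1 on Sca1- replicate 1.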
